A study of Homo sapiens with 2 samples.

Results

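Oxidative phosphorylation genes were taken as the nuclear protein-coding genes of GENCODE release 44 whose symbols begin with NDUFA, NDUFB, NDUFC, NDUFS or NDUFV and a digit, with COX and a digit, with UQCR or with ATP5, together with SDHA, SDHB, SDHC and SDHD. This gave 98 of 20033 protein-coding genes. Of the 98, 87 encode broadly used subunits, related proteins or assembly factors, 9 are tissue-restricted isoforms or gene copies, and 2 are read-through genes that join a member to its neighbour. The symbols and not the measured values chose the members.

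Open chromatin was mapped by ATAC-seq: the Tn5 transposase cuts and tags DNA that is not covered by nucleosomes. The 2 samples were replicates 1 and 2 of untreated H1, an established human embryonic stem cell line. Cells were thawed from frozen stocks, cleared of free DNA with DNase I, separated over Ficoll and processed with the Omni-ATAC method. The series used the map to train a sequence model of accessibility, and the samples share 1 deposited list of peaks on GRCh38 (hg38).

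Oxidative phosphorylation takes place in the inner mitochondrial membrane. Complex I (NADH dehydrogenase) and complex II (succinate dehydrogenase) feed electrons to ubiquinone, complex III passes them to cytochrome c, and complex IV (cytochrome c oxidase) passes them to oxygen. The protons pumped on the way drive the ATP synthase. A few subunits are encoded in mitochondrial DNA, and the nuclear genes described here encode the rest, with several complex IV subunits existing as a common form and a form used mainly in muscle, lung or testis. Pluripotent stem cells are known for a high rate of glycolysis and for small, immature mitochondria.

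A gene was counted as having a region when the summit of a listed region lay within 1 kb of any of its annotated transcript starts. Its value is the fold of its strongest such summit, the authors' own enrichment over background (which background is not stated). The list pools the samples, so no value has a replicate error and no test over samples could be made. Read depth was not analysed here. A region shows open DNA and not the amount of RNA made.

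Nearly every gene of the set had open chromatin at a start. A region was present at 94 of the 98 genes (95.9%), against 81.1% of all protein-coding genes. Other housekeeping sets were at a like level, with 77 of 78 mitochondrial ribosomal protein genes (98.7%) and 39 of 40 proteasome subunit genes (97.5%). All 87 broadly used genes had one, and all 87 also had one within 1 kb of the canonical start, the start of the transcript that Ensembl takes as representative. At canonical starts the count was 92 of 98 (93.9%), against 76.8% of protein-coding genes. The mitochondrial ribosomal protein and proteasome counts were unchanged there. The 4 genes without a region were COX6A2, COX7B2, COX8C and ATP5MGL, each a restricted form. Their nearest summits were 14796, 10428, 3161 and 8529 bp away. Just inside the limit lay NDUFA4L2, with a summit at 750 bp, and COX7A1, at 660 bp, so no gene of the set was decided by a few bases around 1 kb.

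The broadly used genes also stood above the typical gene in the fold of their start summits. Their median fold was 12.1, with quartiles of 9.31 and 14.4 and a range of 3.92 to 21, against a median of 9.71 and quartiles of 6.92 and 12.7 over the 16254 protein-coding genes with a region. Above the protein-coding median lay 62 of the 87, and above its upper quartile 40 (46%, against 25% of all genes by construction). Below the lower quartile lay 5 of the 87. With the restricted and read-through genes included, the median was 11.8. Genes for other housekeeping machines were alike in this respect. The median fold was 11.3 at 77 genes for mitochondrial ribosomal proteins and 11.7 at 39 genes for proteasome subunits.

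**Figure D1:**
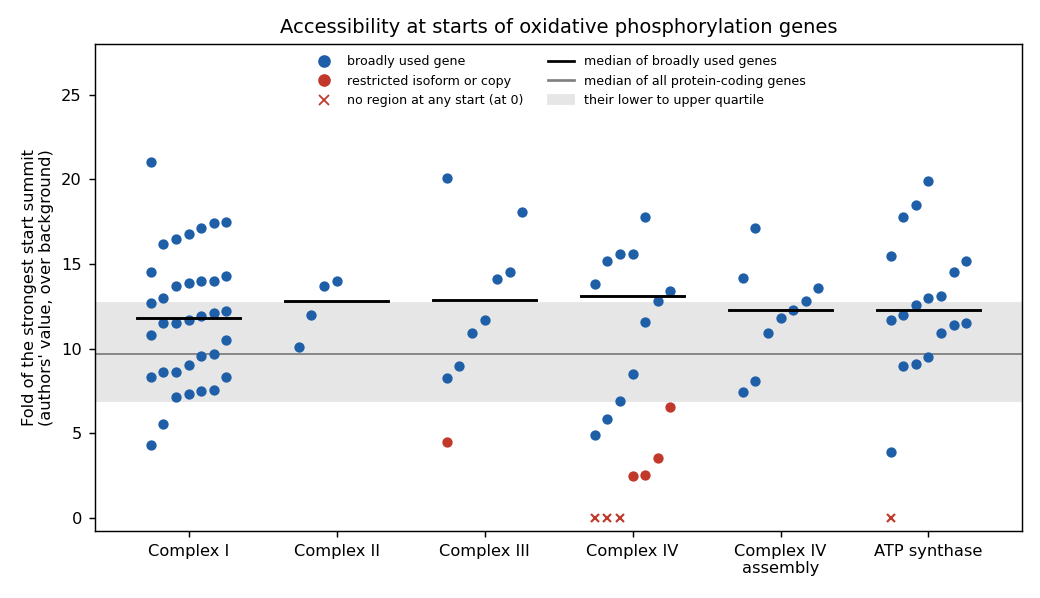
Fold of the strongest start summit (vertical axis, authors' value over background) for each gene, grouped by complex; blue points are broadly used genes, red points restricted forms, crosses at 0 genes with no region, black bars the medians of the broadly used genes, and the grey line and band the median and quartiles of all protein-coding genes. The black bars lie between 11.8 and 13.1, all above the grey line at 9.71, and the red points all lie below it.

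The complexes differed little in their medians, and the spread lay between genes of the same complex. The median fold over the broadly used genes was 11.8 for complex I (36 genes), 12.8 for complex II (4 genes), 12.9 for complex III (8 genes), 13.1 for complex IV (12 genes), 12.3 for its assembly factors (9 genes) and 12.3 for the ATP synthase (18 genes). Each complex held genes above 12.7, the upper quartile of protein-coding genes. All but complex II also held genes below the protein-coding median of 9.71.

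In complex I, the 7 core subunits, which carry the flavin, iron-sulphur clusters and quinone site of the enzyme, had a median fold of 12.2. The 29 accessory subunits, which surround the core, had a median of 11.7. Folds in the core included 14 at NDUFV1, which binds NADH, 13 at NDUFS1, 12.7 at NDUFV2, 12.2 at NDUFS3, 10.8 at NDUFS8 and 5.56 at NDUFS7, which carries an iron-sulphur cluster near the quinone site and was the lowest core gene. The highest fold of the whole set, 21, was at NDUFB5, an accessory subunit of the membrane arm, in the region chr3:179604301-179605388. It lay at the 99.5th percentile of protein-coding genes with a region. Its neighbours in rank within the complex were NDUFB3 (17.5) and NDUFB4 (17.4), also membrane-arm subunits. NDUFS6, an accessory subunit next to the iron-sulphur clusters, was lowest with 4.28 in an intron region 630 bp inside the gene. The region over its start had a fold of 4.03.

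The remaining accessory subunits of complex I fell on both sides of the protein-coding median. High folds were found at NDUFA12 (17.1), NDUFA2 (16.8), NDUFA5 (16.5) and NDUFB9 (16.2). Also above the upper quartile were NDUFC1 (14.5, with 4.51 at its canonical start), NDUFA6 (14.3), NDUFV3 (14), NDUFB11 (13.9) and NDUFA8 (13.7). NDUFA3 (12.1), NDUFB2 (11.9), NDUFB6 (11.7), NDUFA1 (11.5), NDUFA9 (11.5) and NDUFB1 (10.5) lay between the median and the upper quartile. Below the median were NDUFS4 (9.66), NDUFS5 (9.57), NDUFA11 (9.03), NDUFB7 (8.64), NDUFA13 (8.59), NDUFA10 (8.3), NDUFC2 (7.55), NDUFA7 (7.47), NDUFB10 (7.29) and NDUFB8 (7.14). The read-through gene NDUFC2-KCTD14 shares the NDUFC2 region and value, as ATP5MF-PTCD1 shares those of ATP5MF.

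In complex II the folds were 10.1 at SDHA, the flavoprotein that oxidises succinate, 12 at SDHB, the iron-sulphur subunit, 13.7 at SDHC and 14 at SDHD, the membrane anchors. The 4 values lay within the middle range of the set. SDHA has closely similar pseudogene copies, and how reads were assigned between them is not given in the sources used here.

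In complex III the highest folds were 20.1 at UQCRB, a ubiquinone-binding subunit, and 18.1 at UQCRQ, a small subunit of the membrane part. The 2 large core proteins had 14.5 (UQCRC1) and 10.9 (UQCRC2), the Rieske iron-sulphur protein UQCRFS1 had 11.7, and the small subunits UQCR10, UQCR11 and UQCRH had 14.1, 8.96 and 8.24. The UQCRH region, chr1:46301751-46303977, was the widest of the broadly used genes at 2227 bp and held 6 summits.

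In complex IV the highest folds were at COX7C (17.8) and at COX6A1 and COX7A2 (15.6 each), small subunits around the catalytic core. COX5B had 15.2, COX7A2L 13.8, COX8A 13.4, NDUFA4 12.8, COX5A 11.6 and COX6C 8.53. COX7A2L takes part in joining complexes III and IV, and NDUFA4 was named for complex I before it was assigned to complex IV. The lowest were COX7B (6.92), COX6B1 (5.85) and COX4I1 (4.91). COX4I1, which binds ATP and sets the enzyme's response to it, lay at the 10.9th percentile of protein-coding genes although its region, chr16:85798863-85800538, was wide at 1676 bp. Among assembly factors, COX10 (17.1) and COX15 (12.8) make haem A, COX11 (14.2), COX17 (12.3) and COX19 (8.09) handle copper, and COX18 (13.6) and COX20 (7.43) handle the mitochondrially encoded subunit COX2. The assembly factors COX14 and COX16 had 11.8 and 10.9.

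In the ATP synthase, the F1 head that makes ATP had the highest median, 15.2 over 5 genes, and also the lowest single gene. The folds were 17.8 at ATP5F1B, the catalytic beta subunit, 15.5 at ATP5F1C (gamma), 15.2 at ATP5F1E (epsilon), 14.5 at ATP5F1A (alpha) and 3.92 at ATP5F1D (delta). The value for ATP5F1A lay at an outlying start shared with HAUS1, at -6017 bp relative to the canonical start, and the fold at the canonical start was 9.38. The 3 genes that encode the same mature c-ring protein were closely alike: ATP5MC1 had 12.6, ATP5MC2 12 and ATP5MC3 11.4. In the peripheral stalk, ATP5PO reached 19.9, and ATP5PF, ATP5PD and ATP5PB had 13, 11.5 and 10.9. The small membrane subunits had 18.5 (ATP5MK), 13.1 (ATP5MJ), 9.53 (ATP5ME), 9.09 (ATP5MF) and 8.97 (ATP5MG), and the inhibitor ATP5IF1, which blocks ATP hydrolysis, had 11.7.

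The restricted forms were set apart from their common counterparts. COX6A2, the form of heart and skeletal muscle, had no region, and COX6A1 had a fold of 15.6. COX7A1, also a muscle form, had 3.51 against 15.6 at COX7A2, a ratio of 4.45. COX4I2, the lung form tied to oxygen response, had 2.46 against 4.91 at COX4I1, a ratio of 2. COX7B2 and COX8C, used mainly in testis, had no region, against 6.92 at COX7B and 13.4 at COX8A. In 5 of these 6 complex IV pairs the common form therefore had the higher fold or was alone in having a region. The exception was COX6B2, the testis form, with 6.55 against 5.85 at COX6B1. That COX6B2 summit lay in an intron, and the summit nearest a COX6B2 start, at -79 bp, had a fold of 3.02. The COX6B1 summit lay at -71 bp.

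Outside the COX symbols the pairs ran the same way. NDUFA4L2, induced by low oxygen in many cells, had 2.53 against 12.8 at NDUFA4, a ratio of 5.07. UQCRHL and ATP5MGL are intronless copies of UQCRH and ATP5MG. UQCRHL had 4.47 against 8.24, and its summit was at -1492 bp relative to the canonical start. ATP5MGL had no region, against 8.97 at ATP5MG. The closeness of copy and parent can affect where reads map.

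**Figure D2:**
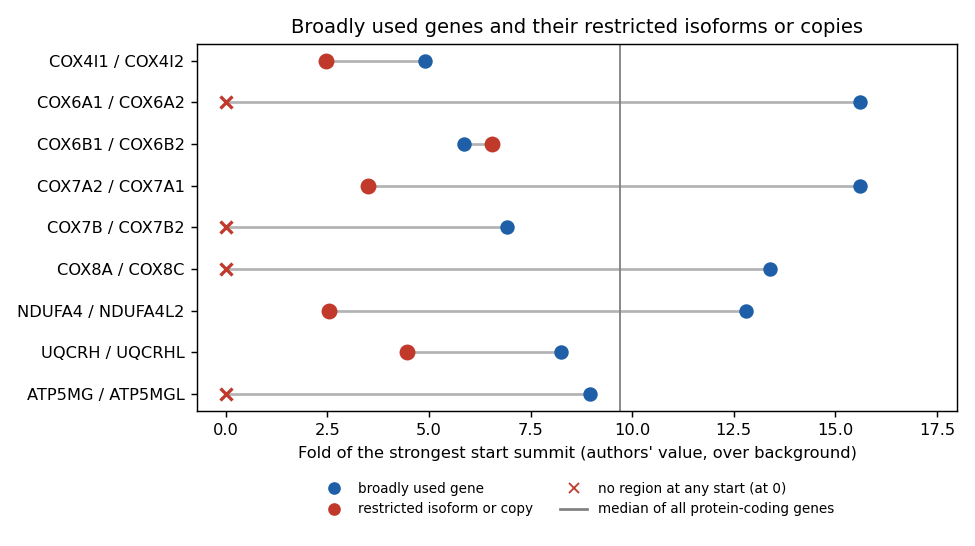
Fold of the strongest start summit (horizontal axis, authors' value) for 9 pairs of a broadly used gene (blue) and its restricted isoform or copy (red, a cross at 0 where there was no region), with the median of all protein-coding genes as a grey line. In 8 of the 9 pairs the blue point lies to the right, and COX6B1 and COX6B2 lie close together at 5.85 and 6.55.

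Where a restricted form had a region, its strongest summit lay downstream of the nearest annotated start. The summits lay 73 bp (COX4I2), 335 bp (COX6B2), 660 bp (COX7A1) and 750 bp (NDUFA4L2) downstream of the nearest start, each in an intron, and 207 bp downstream at UQCRHL. The regions of 3 of the 5 still reached over an annotated start, and those of COX7A1 and NDUFA4L2 did not. Upstream of the nearest start lay 0 of the 5, against 68 of 87 among broadly used genes. Measured from the canonical start it was 1 of 5 (UQCRHL) against 79 of 87. The median ratio of observed to expected CpG within 500 bp of the start was 0.585 at restricted forms, 0.745 at broadly used genes and 0.725 at all protein-coding genes. Across genes with a region, Spearman's rho between fold and this ratio was 0.06 over all 16254 and -0.22 over the 87 broadly used genes. The part of CpG content in these pairs was not tested.

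The DNA just upstream of 2 pairs is shown because they differ in this respect, as the 100 bases before the canonical start on the gene's strand, with each CpG in capitals. COX6A1 held 7 and COX6A2 held 1. COX8A and COX8C held 7 each, and only COX8A had a region. Within 500 bp of the start, the ratio of observed to expected CpG was 0.814 at COX6A1 and 0.69 at COX6A2. It was 0.776 at COX8A and 0.585 at COX8C.
COX6A1, chr12:120438013-120438112, plus strand: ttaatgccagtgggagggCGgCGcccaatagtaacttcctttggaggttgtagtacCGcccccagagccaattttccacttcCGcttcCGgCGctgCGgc
COX6A2, chr16:31428361-31428460, minus strand: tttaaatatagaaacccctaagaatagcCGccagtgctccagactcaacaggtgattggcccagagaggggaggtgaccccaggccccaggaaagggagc
COX8A, chr11:63974520-63974619, plus strand: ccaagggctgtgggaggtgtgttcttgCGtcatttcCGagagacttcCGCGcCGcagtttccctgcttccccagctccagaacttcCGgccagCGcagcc
COX8C, chr14:93347082-93347181, plus strand: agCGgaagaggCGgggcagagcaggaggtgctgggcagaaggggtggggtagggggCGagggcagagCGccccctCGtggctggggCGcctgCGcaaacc

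Summits clustered just before the start. The median position was -31 bp from the nearest annotated start over the 94 genes and -43 bp over the broadly used genes, against -46 bp over all protein-coding genes. Within 200 bp lay 86.2% of the broadly used genes (75 of 87), against 77.5% of all. The share was higher still at mitochondrial ribosomal protein genes (93.5%) and proteasome genes (89.7%). Of the broadly used summits, 4 fell in the 5′ UTR, 3 in an intron (NDUFB6, NDUFC1 and NDUFS6) and 1 in coding sequence (NDUFS4). NDUFB6, a membrane-arm subunit of complex I, was unusual in having its strongest summit 714 bp inside the gene with a fold of 11.7.

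**Figure D3:**
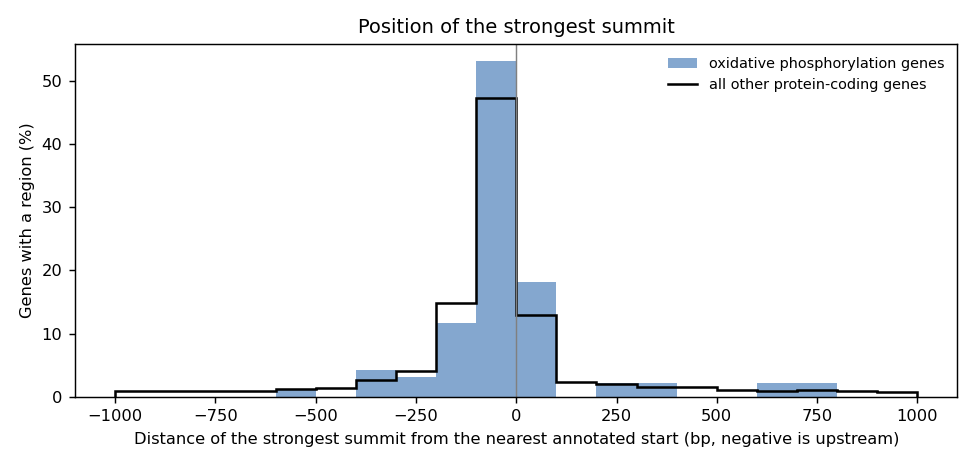
Share of genes with a region (vertical axis, percent) by distance of the strongest summit from the nearest annotated start (horizontal axis, bins of 100 bp, negative upstream), for oxidative phosphorylation genes (blue) and all other protein-coding genes (black line). The bin just upstream of the start holds 53.2% of the blue genes and 47.3% of the others.

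Most of these genes had a single start region. Of the 94, 78 had 1 region at their starts, 13 had 2 and 3 had 3. COX16 and NDUFB9 were among those with 3. More than 1 was found at 17%, against 38.6% of protein-coding genes. The share was 16.9% at mitochondrial ribosomal protein genes and 30.8% at proteasome genes. The strongest region had a median width of 1032 bp at broadly used genes against 1074 bp over all genes, and ran from 229 bp at NDUFS6 to 2227 bp at UQCRH.

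Few accessible regions away from starts were nearest to these genes. A distal region was one with no summit within 1 kb of any gene's start, credited to whichever protein-coding gene had its 5′ end closest, up to 100 kb away. The median was 1 per gene against 2 over all protein-coding genes, and 44 of 98 (44.9%) had none, against 29.8%. None was found at 35.9% of mitochondrial ribosomal protein genes and 55% of proteasome genes. Among the oxidative phosphorylation genes, the most were at COX7C (13) and COX18 (11), followed by COX6C, COX7A2L and UQCRFS1 with 8 each. The count depends on how near other genes lie, and a nearest gene is not a shown target.

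Many of these genes start close to a neighbour that points the other way. A protein-coding gene on the opposite strand, starting within 1 kb and pointing away, was present at 37 of the 98 genes (37.8%), against 16.2% of all protein-coding genes. All 37 were broadly used genes (42.5% of 87), and 0 of the 9 restricted forms had such a partner. The share was 39.7% among mitochondrial ribosomal protein genes and 25% among proteasome genes. By complex it was 52.8% in complex I, 50% in complex II, 44.4% in the ATP synthase, 37.5% in complex III and 16.7% in complex IV. The starts lay a median of 82 bp apart, and within 200 bp in 32 genes. Over all protein-coding genes with a partner the median was 103 bp, with 2418 of 3249 within 200 bp. Starts this close make a shared summit likely at any gene. Among all protein-coding genes with a partner and a region, the strongest summit lay within 1 kb of both starts at 2738 of 3157. Here it did so at 34 of the 37. In 32 of these the partner had the same strongest summit and fold, and in 2 it had a stronger summit of its own: MAGT1 had 13.9 beside COX7B (6.92), and MRPL36 had 5.81 beside NDUFS6 (4.28). The exceptions included ATP5MJ with TDRD9 and NDUFV3 with WDR4.

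Some partners serve mitochondria themselves, and their share was not compared with that over all genes. NDUFB5, the gene of highest fold, starts 41 bp from MRPL47, a mitochondrial ribosomal protein gene, and NDUFS6 starts 41 bp from MRPL36, another. SDHD starts 26 bp from TIMM8B, which helps to import proteins into mitochondria. ATP5PF, a stalk subunit of the ATP synthase, starts 68 bp from GABPA, which encodes an ETS-family factor known to bind promoters of oxidative phosphorylation genes, and the pair share a summit with a fold of 13. The closest pairs were COX4I1 with EMC8 (4 bp), UQCRQ with GDF9 (5 bp) and NDUFB9 with TATDN1 (7 bp). Genes with a partner had a median fold of 12.8 and broadly used genes without one 11.9, against 10.9 and 9.4 among all protein-coding genes.

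Folds were lower on chromosome 19. The 10 broadly used genes there had a median of 8.61 and a range of 3.92 to 12.1, and 9 of them lay below the median of all broadly used genes. The 77 elsewhere had a median of 12.8. Of the 5 broadly used genes below the lower quartile of protein-coding folds, 3 were on chromosome 19: ATP5F1D, NDUFS7 and COX6B1. All protein-coding genes on that chromosome had a median of 9.04, against 9.78 elsewhere, a smaller gap. On the X chromosome, NDUFB11 had 13.9, NDUFA1 11.5 and COX7B 6.92. Folds tended to fall with G+C content within 500 bp of the canonical start. Spearman's rho in the same list was -0.22 over the 87 broadly used genes and -0.23 over all 16254 genes with a region. Between 50 and 60% G+C the median fold was 12.3 at broadly used genes against 11.4 at all genes, and between 60 and 70% it was 12.1 against 9.99. Below 50% it was 15.6 (7 genes) against 9.12, and from 70% up 9.82 (4 genes) against 7.83. Over all genes the fall therefore did not extend below 50%.

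**Figure D4:**
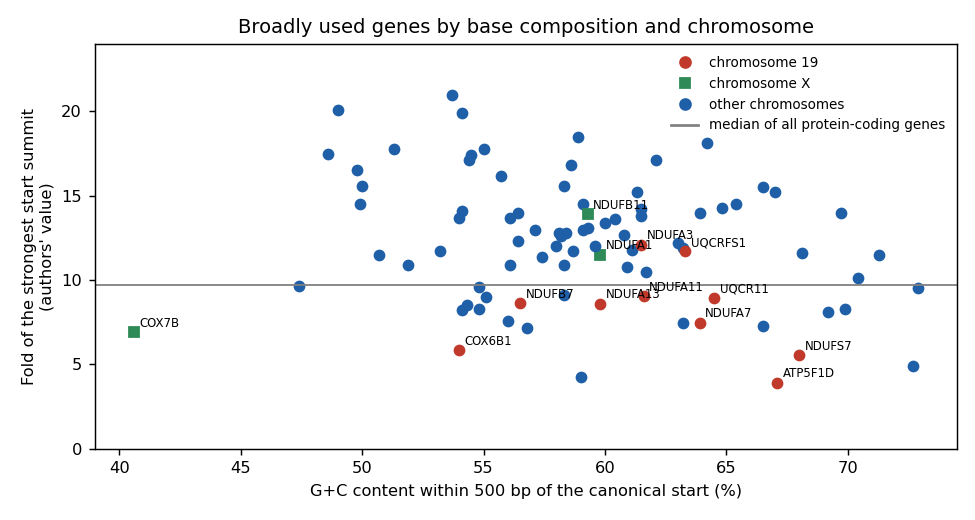
Fold of the strongest start summit (vertical axis, authors' value) against G+C content within 500 bp of the canonical start (horizontal axis, percent) for the 87 broadly used genes, with chromosome 19 in red, chromosome X as green squares and the median of all protein-coding genes as a grey line. The 10 red points lie between 3.92 and 12.1, and 8 of them lie below the line at 9.71.

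The DNA under the summits was searched for the core strings of factors known for these promoters: NRF1 (CGCATGCG), ETS factors such as GABPA (CCGGAAG), YY1 (AAGATGG) and the oestrogen-related receptor ESRRA (AAGGTCA), on either strand. Within 50 bp of the strongest summit the NRF1 string was present at 4 of the 87 broadly used genes (4.6%, against 1.31% of 14464 other summits), the ETS string at 14 (16.1% against 7.62%), the YY1 string at 6 (6.9% against 1.39%) and the ESRRA string at 4 (4.6% against 0.546%). Of the other strings searched, the GC box GGGCGG was at 36 (41.4% against 47.2%), the CCAAT box at 15 (17.2% against 23.4%), the E box CACGTG at 2 (2.3% against 3.69%) and the cyclic AMP response element TGACGTCA at 1 (1.15% against 1.49%). The TATA box string TATAAA was at 2 (2.3% against 1.03%), and the ZNF143 string CTACAATTC at 1, COX7C (1.15% against 0.221%). The windows of the broadly used genes had a median G+C content of 63.4% against 68.3%. Strings this short also occur in unrelated DNA, and a match is not a shown binding site.

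Counted in a window fixed by the gene rather than the summit, from 250 bp before to 50 bp after the canonical start, the strings were more frequent. The NRF1 string was at 12 of 87 genes (13.8%, against 2.78% of 19935 other protein-coding genes), the ETS string at 27 (31% against 14%), the YY1 string at 22 (25.3% against 6.33%) and the ESRRA string at 14 (16.1% against 2.83%). At least 1 of the 4 was at 53 genes (60.9% against 23.3%), a share that was 64.1% at mitochondrial ribosomal protein genes and 55% at proteasome genes. Among the other strings, the cyclic AMP response element was at 5 genes (5.75% against 2.68%), the TATA string at 6 (6.9% against 9.73%) and the GC box at 54 (62.1% against 61.3%). The same letters written backwards were at 1 gene each (1.15%) for NRF1, YY1 and ESRRA, against 0.166%, 1.88% and 3.66% of other protein-coding genes. For ETS they were at 2 genes (2.3% against 5.58%). At other genes the backwards ESRRA letters were thus more frequent than the ESRRA string itself (2.83%). Written backwards, the ETS string loses its CpG and the YY1 string its ATG. The backwards counts therefore do not show what CpG-rich DNA or start codons alone would give. The ETS and YY1 strings were as frequent at mitochondrial ribosomal protein genes (41% and 32.1% of 78) and at proteasome genes (37.5% and 22.5% of 40). The NRF1 string was at 5.13% and 2.5% of those genes, and the ESRRA string at 3.85% (3 genes) and 0%.

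**Figure D5:**
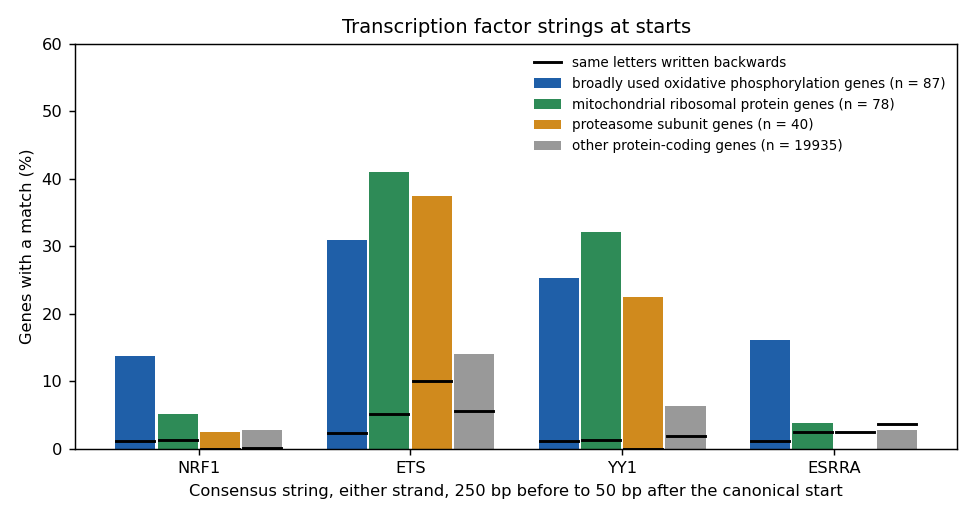
Share of genes (vertical axis, percent) with each factor's string from 250 bp before to 50 bp after the canonical start, for broadly used oxidative phosphorylation genes (blue), mitochondrial ribosomal protein genes (green), proteasome genes (orange) and other protein-coding genes (grey); black ticks mark the same letters written backwards. The blue bar is the highest of its group for NRF1 (13.8%) and ESRRA (16.1%), and the green bar is the highest for ETS (41%) and YY1 (32.1%).

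The 14 genes with the ESRRA string came from complex I (4), complex II (2), complex IV (3), its assembly factors (1) and the ATP synthase (4). Of the 14 matches, 11 lay upstream of the start and 3 (21.4%) downstream, against 9.42% downstream among 573 matches at other protein-coding genes. The median position was -56 bp against -131 bp, in a window that is mostly upstream. Examples from each complex named, and from the assembly factors, are shown with 10 bases to either side on the gene's strand. The string or its reverse complement is in capitals, so that the flanks can be compared. NDUFB4 is an accessory subunit of complex I, SDHD an anchor of complex II, COX8A and COX7A2 small subunits of complex IV, COX18 an assembly factor, and ATP5F1A and ATP5MC3 a head and a ring subunit of the ATP synthase.
NDUFB4, chr3:120596287-120596313, plus strand: cctgaagctgAAGGTCAgcatagacaa
SDHD, chr11:112086874-112086900, plus strand: ggttggtggaTGACCTTgagccctcag
COX8A, chr11:63974622-63974648, plus strand: tttggcttccTGACCTTgggctacggc
COX7A2, chr6:75243955-75243981, minus strand: gaacatcgaaAAGGTCAggaacgagat
COX18, chr4:73069773-73069799, minus strand: cttgactgggAAGGTCAatcgcggctg
ATP5F1A, chr18:46098301-46098327, minus strand: ccggctgtctTGACCTTctttgcggct
ATP5MC3, chr2:175181788-175181814, minus strand: tgttacaaagTGACCTTgagtgtcttc

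Strings of 2 of the 4 factors met at 2 summits, those of COX18 and ATP5MG. The summit window of COX18 (50 bases to either side), which encodes the insertase for COX2, held both the ESRRA and the NRF1 string, in capitals below, and had a fold of 13.6. That of ATP5MG, a small membrane subunit of the ATP synthase, held the ESRRA and the ETS string and had a fold of 8.97. Windows with 1 string each are shown for NDUFB5, the gene of highest fold (YY1), and COX10 (ETS, fold 17.1).
COX18, chr4:73069708-73069808, minus strand: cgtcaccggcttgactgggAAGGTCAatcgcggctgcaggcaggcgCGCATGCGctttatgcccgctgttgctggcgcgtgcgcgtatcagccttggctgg
ATP5MG, chr11:118401544-118401644, plus strand: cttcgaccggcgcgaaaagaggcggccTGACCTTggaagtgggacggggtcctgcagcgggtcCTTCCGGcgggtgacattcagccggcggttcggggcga
NDUFB5, chr3:179604694-179604794, plus strand: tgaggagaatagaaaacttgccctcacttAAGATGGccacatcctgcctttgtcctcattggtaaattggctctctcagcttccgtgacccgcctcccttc
COX10, chr17:14069411-14069511, plus strand: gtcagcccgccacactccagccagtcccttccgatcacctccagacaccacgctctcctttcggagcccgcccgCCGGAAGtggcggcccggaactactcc

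The YY1 string lay in a particular place. Of its 23 matches near broadly used starts, 16 (69.6%) were downstream of the start, against 47% of matches at other protein-coding genes, and 18 were on the gene's own strand. The string contains ATG, and in 14 of the 18 genes with it on their own strand that ATG was the annotated start codon of the canonical transcript (77.8%), against 365 of 860 other protein-coding genes (42.4%). This amounts to 16.1% of the 87 broadly used genes and 1.83% of the others. They included ATP5ME, ATP5PO, NDUFA3, NDUFA6, NDUFA7, NDUFA9, NDUFA12, NDUFB8, NDUFS4, NDUFS7, SDHB, SDHC and UQCRC1. The start codon sits within the capitals in these 5, which are shown because they span 4 complexes.
NDUFA9, chr12:4649114-4649140, plus strand: attgtgggaaAAGATGGcggctgccgc
NDUFS4, chr5:53560650-53560676, plus strand: tgcctgcagcAAGATGGcggcggtgtc
SDHB, chr1:17054006-17054032, minus strand: gtcaggagccAAGATGGcggcggtggt
UQCRC1, chr3:48609607-48609633, minus strand: ctgcagctggAAGATGGcggcgtccgt
ATP5PO, chr21:33915750-33915776, minus strand: cgcccgggagAAGATGGctgccccagc

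At NDUFS4, an accessory subunit of complex I, the strongest summit itself lay 24 bp after the start, in coding sequence and inside this string. At the other genes shown the summit lay upstream, from -17 bp at NDUFA9 to -232 bp at SDHB. Among broadly used genes, folds were not higher at summits with the YY1 (6 genes), ETS (14) or NRF1 (4) string. Medians with and without the string were 12 and 12.1 for YY1, 10.5 and 12.6 for ETS, and 11.4 and 12.2 for NRF1. For ESRRA (4 genes) they were 12.8 and 12.1. At other protein-coding summits the median was higher with the string for YY1 (10.4 against 9.52), ETS (11 against 9.38) and NRF1 (10.6 against 9.5). For ESRRA it was lower there (9.16 against 9.52).

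Other genes of the pathway were open as well. For comparison, 81.1% of all protein-coding genes had a region, with a median fold of 9.71. Lists of 4 or 5 genes are too short to be told from that share. All 4 subunit or carrier genes that the symbols miss had a region, with folds of 17.1 at CYCS (cytochrome c), 12.4 at DMAC2L, 11.2 at NDUFAB1 and 8.18 at CYC1 (cytochrome c1). So did 19 of 19 complex I assembly genes (median 12.7), 4 of 4 for complex II (13.9), 9 of 9 for complex III (11.2), 16 of 16 further genes for complex IV (12.3), 5 of 5 for the ATP synthase (10.8) and 13 of 13 for ubiquinone synthesis (12.1). The highest of the complex I list were TMEM126B (20) and NDUFAF2 (19.8). Regulators and genes of mitochondrial DNA upkeep were likewise marked at 19 of 19 starts (median 10.8). The highest were ESRRG (20.8), a relative of ESRRA, and TFB1M (18.3), which modifies mitochondrial ribosomal RNA. The coactivator PPARGC1A and the GABPA partner GABPB1 were lowest at 5.96 each.

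Cell type markers were read by the same rule. All 12 pluripotency markers had a region, against 81.1% of all protein-coding genes. Their median fold of 7.57 was below the 9.71 of all protein-coding genes with a region. Of the blood markers, 0 of 3 had a region. Regions were also present at 5 of 6 fibroblast, 4 of 4 germ layer, 2 of 4 muscle and 1 of 2 liver markers, so a region at a start did not by itself tell the cell type.

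Most copies of these genes elsewhere in the genome had no listed region. Of 176 annotated pseudogenes with matching symbols, 22 (12.5%) had a region. Among those over 2 kb from any start of another kind of gene it was 20 of 163 (12.3%), with a median fold of 4.65, against 8.18% of 9623 processed pseudogenes, with a median of 5.43. The strongest were COX5BP1 (15.2), whose summit lay 953 bp from its start, and COX5AP1 (13.7), with a summit at 48 bp in chr14:55240554-55241245.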

How the data were processed

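ATAC-seq was run on 2 samples of H1 cells, which share 1 peak list. The list is on GRCh38, per the submitters' processing notes. For the aligner, peak caller, filters and read shift, nothing is given in the sources used here. The deposited list gives the authors' fold (a ratio over background) and -log10 p per summit, a score and the summit position. The fold described and ranked summits, the -log10 p served as an alternative threshold, and the score was not used.

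Rows with the same coordinates were 1 region (160327 regions, 236878 summits). Summits were matched to transcript starts of GENCODE release 44 within 1000 bp, and the deposited summit of highest fold stood for the gene. Strings were matched exactly on the hg38 sequence with Python 3.11.15, numpy 2.4.6, scipy 1.17.1 and pysam 0.24.0, and the matching was tested on simulated regions. Counts and medians are set beside those of all protein-coding genes, with no test. Named were the 3 highest and 2 lowest genes of each complex, genes without a region, isoform pairs and divergent pairs. Other members appear because each is accounted for, except that values of 1 gene are not reported here, though it is included in counts and medians. The members and lists were chosen with earlier results of these data known. The backwards strings, string positions, start-codon count, summit directions and chromosome split were added after values were seen, as was the choice of sequences and pseudogenes shown. Each of the 20033 genes counts once, also where 2 genes share a region.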

Additional observations from a re-analysis of the deposited data

How the results depend on the processing

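The count of oxidative phosphorylation genes with a region ran from 88 to 94 and their median fold from 11.5 to 12 over the 9 other ways of matching summits to starts, including a window of 500 or 2000 bp, canonical or outermost starts only, and region overlap. The lowest count, 88, came with outermost starts, where 83 of 87 broadly used genes had a region; at every other setting it was 87. Restricted forms with a region fell from 5 to 3 with canonical starts, with outermost starts, within 500 bp and with overlap, and to 1 (COX6B2) with summits above the median -log10 p of the list. The count of genes with a divergent protein-coding partner fell from 37 to 27 with canonical starts only. It was 35 with partner starts within 500 bp and 38 within 2000 bp. The share over all protein-coding genes at these settings is not given here. The median summit position was -62 bp from canonical starts. Matches within 100 bp of the summit, and from 250 bp before to 50 bp after the start, came to 12 and 12 genes for NRF1, 23 and 27 for ETS, 17 and 22 for YY1, 24 and 28 for CCAAT, and 2 and 5 for CRE (1 within 50 bp). The second window gave 14 genes for ESRRA, 8 for the E box (2 within 50 bp) and 6 for the TATA box (2 within 50 bp). The counting windows differ in length. No paired analysis was possible because the list holds no values per sample, and for the same reason no replicate could be left out.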
